A study of Homo sapiens with 24 samples.

Results

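Feedback genes of the ERK pathway, which ERK switches on and most of which act back upon it, were followed in MDA686TU cells, an established line of squamous cell carcinoma of the head and neck (SCCHN). They are the phosphatase genes DUSP4, DUSP5 and DUSP6, the inhibitor genes SPRY2, SPRY4 and SPRED2, the transcription factor genes ETV4, ETV5 and EGR1, and PHLDA1. The members were chosen by symbol, matched to the Ensembl identifiers of the raw count table, and are 10 of its 60617 genes. All 10 passed the filter on low counts and are among the 15476 genes tested. Cells in DMEM/F12 with 10% FBS were left untreated (control) or received EGCG, the main polyphenol of green tea, at 40 µM, resveratrol, a polyphenol of grapes, at 15 µM, or both at these doses (combination), for 24 h. Each of the 4 groups had 6 mRNA libraries, made from total RNA. All groups came from this single cell line, so the values describe 1 genetic background. Resveratrol was added from a DMSO stock and EGCG was dissolved in water. The sources used here do not state that the control cells received DMSO, so resveratrol and its solvent cannot be told apart. They also do not state that the 6 replicates were separate cultures, so p-values measure the spread between these libraries, which may be technical.

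In the ERK pathway, growth factor receptors such as EGFR act through adaptors and RAS on the kinases RAF, MEK and ERK, and active ERK moves to the nucleus and raises the transcription of a small set of genes. Several of these genes restrain the pathway in turn: dual-specificity phosphatases remove the activating phosphates from ERK, and Sprouty and SPRED proteins act at the level of RAS and RAF. Messenger RNA of such genes is widely used as a readout of pathway output, although each of them also answers to other inputs, and neither phosphorylated ERK nor any protein is measured by these libraries.

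The promoters of 3 members are printed because they hold a site of 1 of the transcription factor families that carry the ERK signal to DNA. RefSeq promoter windows of GRCh38.p14 were at hand for 6 of the 10 members, with 9 windows in all, and 250 bases before each start were searched on both strands. The motifs were the CArG box of serum response factor (SRF), the ETS core CCGGAA, the CRE TGACGTCA, the AP-1 motif TGANTCA and the EGR motif GCGTGGGCG. Bases of a match are in capitals in the lines that follow, each read 5′ to 3′ towards the start site on the strand of its gene.
EGR1, chr5:138465229-138465478, plus strand: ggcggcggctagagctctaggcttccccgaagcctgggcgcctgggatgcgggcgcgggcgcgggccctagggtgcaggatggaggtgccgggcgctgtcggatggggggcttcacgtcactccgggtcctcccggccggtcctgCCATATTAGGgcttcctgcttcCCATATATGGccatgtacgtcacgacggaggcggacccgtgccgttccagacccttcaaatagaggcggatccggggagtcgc
PHLDA1, chr12:76031777-76032026, minus strand: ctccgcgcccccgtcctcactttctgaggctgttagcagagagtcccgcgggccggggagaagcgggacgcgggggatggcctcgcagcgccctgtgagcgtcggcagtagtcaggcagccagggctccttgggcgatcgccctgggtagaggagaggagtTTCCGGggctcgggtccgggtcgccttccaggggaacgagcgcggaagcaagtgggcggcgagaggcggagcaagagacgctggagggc
SPRY2, chr13:80341127-80341376, minus strand: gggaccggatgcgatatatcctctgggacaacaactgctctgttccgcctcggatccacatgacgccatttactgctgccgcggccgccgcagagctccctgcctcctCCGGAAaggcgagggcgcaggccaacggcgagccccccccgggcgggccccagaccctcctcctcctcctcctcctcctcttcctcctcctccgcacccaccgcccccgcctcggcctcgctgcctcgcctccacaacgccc
The EGR1 window held 2 CArG boxes, at 105 to 96 and at 83 to 74 bases before the start. The PHLDA1 window held the ETS core on its reverse strand, at 89 to 84 bases before the start. The printed SPRY2 window held it at 142 to 137. The other windows of members, further ones of SPRY2 among them, held no match. Of 34943 such windows of all genes, 1.17% held a CArG box and 14.5% an ETS core. A CRE was in 1.63%, an AP-1 motif in 6.59% and an EGR motif in 0.721%, and no window of a member held any of these 3. These matches are letters in a window and no measure of binding.

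In untreated cells all 10 genes were expressed. Levels between genes are compared per length, as the authors' FPKM, of which the median over tested genes in the control was 4.95. PHLDA1 had the highest mean, at 41.8, above 90.4% of tested genes. SPRED2 at 15.3, ETV4 at 14.0, DUSP6 at 13.2, DUSP4 at 11.1, EGR1 at 10.3 and DUSP5 at 9.80 lay within a narrow span. ETV5 at 3.50 was below the median, and SPRY2 at 1.88 and SPRY4 at 1.53 were lowest. SPRY2 had only 37 to 76 raw counts in any library, and its coefficient of variation within groups reached 19.4%, against at most 5.43% for PHLDA1.

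The libraries held 7034872 to 11735574 counts. All 8 squamous epithelial markers were abundant, with KRT14 at a median FPKM of 1452, and their summed FPKM was 6380 to 6718 in the control, 6082 to 6867 with EGCG, 5291 to 5573 under resveratrol and 5248 to 5740 in the combination. Of 3 leukocyte markers PTPRC and CD3E had at most 1 count in any library and CD68 at most 11, and none passed the filter on low counts. Of 2 endothelium markers PECAM1 had at most 1 count and VWF, which passed the filter, at most 20. The summed FPKM of 4 fibroblast markers was 13.0 to 15.7 in the control, 10.4 to 12.9 with EGCG, 15.3 to 18.1 under resveratrol and 17.7 to 20.3 in the combination. It was almost all COL1A1, while DCN had at most 1 count. Mitochondrial transcripts took 0.249% to 0.326% of counts in replicates 1 to 3 of the groups and 0.448% to 0.775% in replicates 4 to 6. The labels name no batch, and each of these 2 sets holds 3 libraries of every group.

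A gene was called, and is written to have risen or fallen, when the Benjamini-Hochberg adjusted p of edgeR's quasi-likelihood test over all tested genes was under 0.1 and its p under 0.05. Differences are log2 fold changes with an SE derived from the F statistic of the test, and levels are the authors' normalized counts. Positions are those of GENCODE v44 on GRCh38. ETV5 rose most, 2.01-fold with resveratrol and 2.23-fold with the combination. SPRY4 also rose, DUSP4, ETV4 and PHLDA1 fell, and DUSP5 rose only when both agents were present. With EGCG alone 1 of the 10 members was called, ETV5, which was higher, where 1.76% of all tested genes were called (0.905% higher and 0.859% lower). With resveratrol 6 were called, 2 higher and 4 lower, where 56.9% of all tested genes were called (28.9% higher and 28.0% lower). With the combination 6 were called, 3 higher and 3 lower, where 59.8% of all tested genes were called (29.9% in each direction). Counts of 6 in 10 are close to these backgrounds, so the number of members called is no result about these genes, and their directions were mixed. The median log2 fold change of the 10 was 0.04 for EGCG, -0.07 for resveratrol and 0.06 for the combination, beside 0.0009, 0.0037 and -0.0015 over all tested genes. Since a library pools many cells, a change in every cell and a larger change in some of them cannot be told apart.

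**Figure D1:**
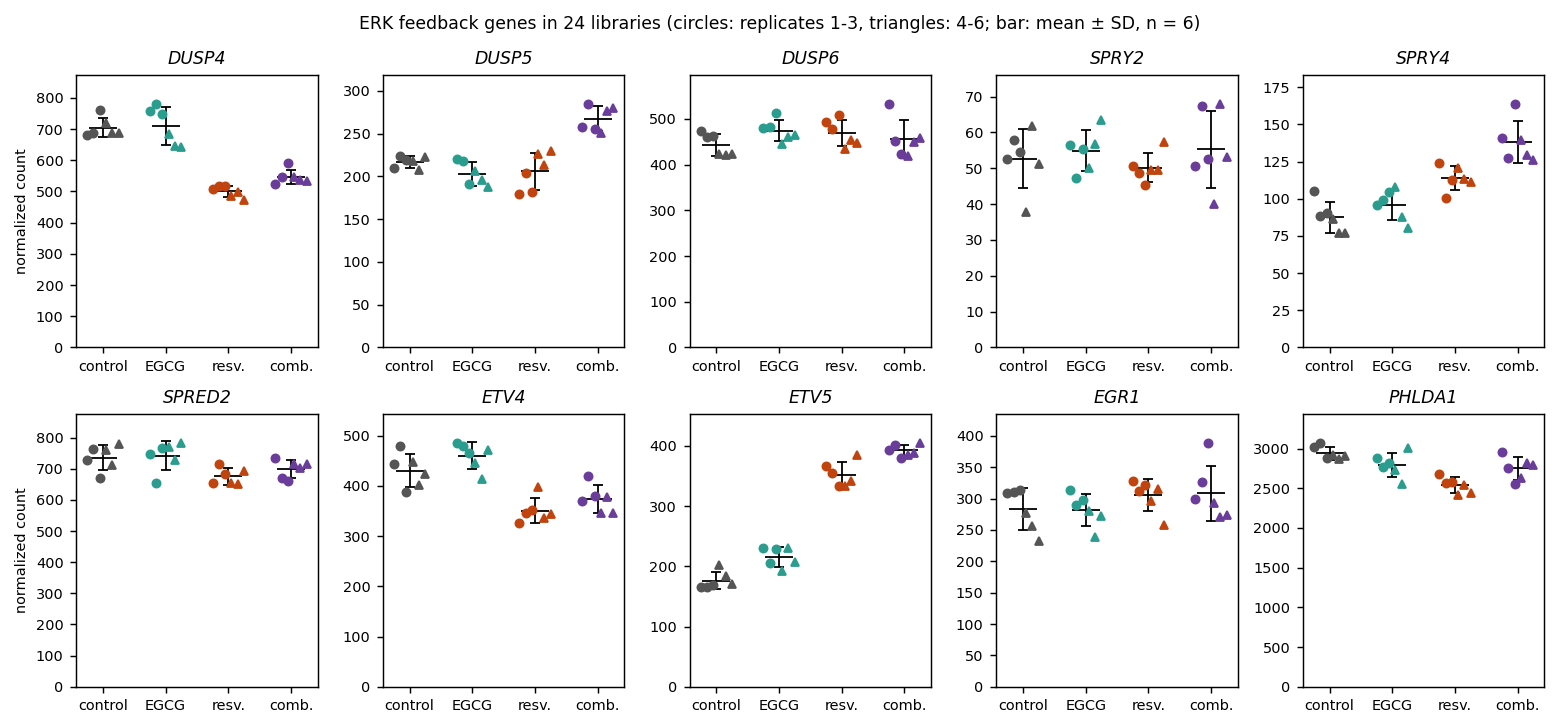
Normalized counts (vertical axes, from 0) of the 10 genes in 24 libraries, by group (horizontal axes; resv. is resveratrol, comb. the combination). Points are libraries, circles replicates 1 to 3 and triangles replicates 4 to 6, and bars are the mean ± SD of 6 libraries. ETV5 stands at 166 to 202 in the control and at 380 to 405 with the combination, DUSP5 is highest with the combination at 250 to 285, and DUSP6, SPRY2 and EGR1 overlap in all 4 groups.

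DUSP4 (ENSG00000120875, chr8:29333064-29350684, minus strand) encodes a nuclear phosphatase of ERK and related kinases. Its normalized counts had a lowest, median and highest value of 682, 689 and 762 in the control and of 642, 716 and 781 with EGCG. Resveratrol gave 474, 503 and 518, and the combination 525, 542 and 592. Every library with resveratrol, alone or combined, was below every library without it. DUSP4 fell by 0.49 ± 0.05 on the log2 scale with resveratrol (0.712 of the control, adjusted p = 2.96e-11) and by 0.36 ± 0.05 with the combination (adjusted p = 2.24e-08). The libraries of these groups did not overlap, as for 31.0% of tested genes with resveratrol and 31.9% with the combination. EGCG alone left a log2 difference of 0.01 ± 0.04, with a 95% confidence interval from -0.08 to 0.10. The combination libraries were all above those of resveratrol alone, yet the difference of 0.13 ± 0.05 missed the threshold (adjusted p = 0.125). This difference was called by unadjusted p, with only the groups compared and with a replicate block. It was also called when the fit had a term for the 2 sets of replicates (adjusted p = 0.0644).

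DUSP5 (ENSG00000138166, chr10:110497907-110511533, plus strand), a nuclear phosphatase that acts on ERK and holds it in the nucleus, was called against the control only with the combination. Its lowest, median and highest normalized counts were 207, 219 and 224 in the control. EGCG alone gave 187, 201 and 220, and resveratrol alone 180, 209 and 230. With the combination they were 250, 267 and 285, so that all 6 libraries lay above the other 18, as those of SPRY4 did. The share of all tested genes with such a separation was not computed. DUSP5 rose by 0.30 ± 0.06 against the control (1.24-fold, adjusted p = 4.81e-05), while the differences with EGCG alone (-0.09 ± 0.06) and resveratrol alone (-0.07 ± 0.06) were not called. Their 95% confidence intervals ran from -0.22 to 0.04 and from -0.20 to 0.05.

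The interaction compares the effect of both agents with the single effects added up on the log2 scale. For DUSP5 it was 0.47 ± 0.09 (adjusted p = 0.00784), a level 1.39-fold above that sum. DUSP5 was the only member called, and was higher, where 0.265% of all tested genes were called (0.207% higher and 0.0582% lower). It kept its call in all 24 fits that left out 1 library, with values from 0.44 to 0.50. Within replicates 1 to 3 the interaction was 0.53 and within replicates 4 to 6 it was 0.41, with adjusted p of 0.297 and 0.264 in these smaller fits. The libraries of resveratrol alone differed between the sets, with a mean of 188 in replicates 1 to 3 and 223 in replicates 4 to 6. Against the control, resveratrol alone thus gave DUSP5 a log2 difference of -0.19 in the first set, which was called there, and of 0.05 in the second.

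DUSP6 (ENSG00000139318, chr12:89347235-89352501, minus strand) encodes the cytoplasmic phosphatase that is most selective for ERK. Its lowest, median and highest normalized counts were 422, 442 and 474 in the control, 445, 473 and 513 with EGCG, 435, 465 and 510 under resveratrol, and 419, 451 and 533 in the combination. All 4 groups overlapped, and DUSP6 was called in no comparison. Its log2 difference from the control was 0.10 ± 0.05 with EGCG (interval from -0.01 to 0.20), 0.09 ± 0.05 with resveratrol (from -0.02 to 0.19) and 0.04 ± 0.05 with the combination (from -0.07 to 0.14). The difference with resveratrol was called under some alternatives, among them scaling by library size alone, where it was 0.17, and without resveratrol replicate 4. The 3 phosphatases of the set thus had 3 patterns: DUSP4 lower with resveratrol, DUSP5 higher with both agents, and DUSP6 called in no comparison.

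SPRY2 and SPRY4 are Sprouty proteins, which damp receptor signalling at RAS and RAF. SPRY4 (ENSG00000187678, chr5:142310427-142326455, minus strand) had lowest, median and highest normalized counts of 76.9, 87.5 and 105 in the control and 80.7, 97.5 and 108 with EGCG. With resveratrol they were 100 to 124 (median 113) and with the combination 126 to 164 (median 134). All combination libraries were above all others, while the lowest resveratrol library lay under the highest of the control. SPRY4 rose by 0.38 ± 0.09 with resveratrol (adjusted p = 4.38e-04) and by 0.66 ± 0.09 with the combination (1.58-fold, adjusted p = 3.30e-08). EGCG alone left 0.13 ± 0.09, with an interval from -0.06 to 0.31. The combination was above resveratrol alone by 0.29 ± 0.08 (adjusted p = 0.0313), 1 of 4 members called there, all higher, where 7.86% of all tested genes were called (4.01% higher and 3.86% lower). In that comparison DUSP4, DUSP5 and SPRY4 had libraries that did not overlap, as did 3.20% of tested genes. That SPRY4 call was lost without resveratrol replicate 2 (0.22 to 0.31 over the 12 fits that left out 1 library), without combination replicate 3, and within replicates 4 to 6 (0.19). The rise with resveratrol alone was 0.25 within replicates 1 to 3, where it was not called, and 0.52 within replicates 4 to 6.

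SPRY2 (ENSG00000136158, chr13:80335976-80341126, minus strand) had 37.7 to 61.8 normalized counts in the control (median 53.5), 47.4 to 63.6 with EGCG (median 55.9), 45.4 to 57.4 with resveratrol (median 49.5) and 40.1 to 68.0 with the combination (median 52.8). The groups overlapped throughout and SPRY2 was called in no comparison. With its few counts the intervals were wide: the log2 difference of the combination from the control was 0.07 ± 0.12, from -0.16 to 0.31. A change of the size seen for SPRY4 with the combination (0.66) lies outside that interval.

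SPRED2 (ENSG00000198369, chr2:65310851-65432637, minus strand) belongs to a related family that blocks the activation of RAF by RAS. Its lowest, median and highest normalized counts were 670, 744 and 778 in the control, 654, 757 and 782 with EGCG, 652, 669 and 716 under resveratrol, and 661, 709 and 733 in the combination. It fell by 0.12 ± 0.04 with resveratrol (0.922 of the control, adjusted p = 0.0208), with overlapping libraries. That call was lost within replicates 1 to 3 (-0.06) and with scaling by library size alone (-0.03). The combination left -0.07 ± 0.04 (interval from -0.16 to 0.02) and EGCG alone 0.01 ± 0.04.

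ETV4 and ETV5 are ETS transcription factors of the PEA3 family, which are targets of ERK and bind ETS sites in other genes. They moved in opposite directions. ETV5 (ENSG00000244405, chr3:186046314-186110318, minus strand) had lowest, median and highest normalized counts of 166, 170 and 202 in the control and 193, 217 and 231 with EGCG. Resveratrol gave 333, 349 and 385, and the combination 380, 391 and 405. All libraries with resveratrol, alone or combined, lay far above all those without it. ETV5 rose by 1.00 ± 0.05 with resveratrol (2.01-fold, adjusted p = 1.72e-17) and by 1.16 ± 0.05 with the combination (2.23-fold, adjusted p = 1.62e-19). It was the member that EGCG alone raised, by 0.31 ± 0.06 (1.24-fold, adjusted p = 0.00250), with libraries that overlapped the control. The rise with EGCG was 0.41 within replicates 1 to 3 and 0.20 within replicates 4 to 6, where it was not called. Mean FPKM of ETV5 went from 3.50 in the control to 7.79 with the combination.

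The combination was above resveratrol alone for ETV5 by 0.15 ± 0.05 (adjusted p = 0.0586), with overlapping libraries. Without any 1 of 5 libraries (resveratrol replicates 3, 4 and 5, combination replicates 2 and 6) that call was lost, although the value stayed between 0.14 and 0.18. The interaction of ETV5 was -0.15 ± 0.08, not called, with an interval from -0.31 to 0.01. DGKG, a diacylglycerol kinase gene, overlaps ETV5 on the same strand and shares 164 exon bases with it, 2.84% of the exon bases of ETV5. Its mean normalized count was 15.7 in the control, 36.4 with resveratrol and 33.6 with the combination, and it rose by 1.19 ± 0.17 and 1.08 ± 0.17 on the log2 scale. How the counting shared reads between the 2 genes was not tested. The gain of ETV5 itself was from 176 to 352 and 392 mean normalized counts.

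ETV4 (ENSG00000175832, chr17:43527844-43579620, minus strand) had 388 to 479 normalized counts in the control (median 433) and 413 to 485 with EGCG (median 468). With resveratrol it had 326 to 399 (median 346) and with the combination 346 to 421 (median 374). Most libraries with resveratrol were below those without it, but the groups overlapped. ETV4 fell by 0.29 ± 0.06 with resveratrol (0.818 of the control, adjusted p = 3.65e-05) and by 0.20 ± 0.06 with the combination (0.870 of the control, adjusted p = 0.00253), the latter missing the threshold within replicates 1 to 3 (-0.15). EGCG alone left 0.10 ± 0.05, with an interval from -0.01 to 0.21. Its mean FPKM went from 14.0 to 11.4 and 12.2, so that ETV4 stayed above ETV5 in every group. ETV4 overlaps DHX8, a helicase gene on the opposite strand, in 68 exon bases (1.93% of those of ETV4). DHX8 was called in no comparison, with a log2 difference of 0.02 ± 0.04 with resveratrol and 0.06 ± 0.04 with the combination.

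EGR1 (ENSG00000120738, chr5:138465479-138469303, plus strand) encodes a zinc finger factor of the immediate early response, whose promoter with its CArG boxes was given before. Its normalized counts had a lowest, median and highest value of 233, 293 and 313 in the control and 239, 285 and 313 with EGCG. Resveratrol gave 258, 314 and 328, and the combination 271, 296 and 388. EGR1 was called in no comparison. The log2 difference from the control was -0.01 ± 0.08 with EGCG (interval from -0.17 to 0.16), 0.12 ± 0.08 with resveratrol (from -0.04 to 0.28) and 0.14 ± 0.08 with the combination (from -0.03 to 0.30). The last was called with library size alone, with genes of at least 1 count and with a replicate block. It was called without combination replicate 5 or 6 too. It also passed the threshold with a term for the 2 sets of replicates (adjusted p = 0.0531). So did the combination against EGCG (0.14 ± 0.08, adjusted p = 0.138 without the term and 0.0425 with it), which was called under 6 of the 12 alternatives that were not the leaving out of 1 library. EGR1 moved with these sets in every group: its level in replicates 4 to 6 was lower than in replicates 1 to 3 by 0.14 to 0.28 on the log2 scale, and in 3 of 4 groups the sets did not overlap. DUSP6 was lower in replicates 4 to 6 of all 4 groups as well, by 0.09 to 0.15, and so were DUSP4 and PHLDA1. The part of the mitochondrial share in these differences was not tested. How many of all tested genes separated between the sets, or were lower in replicates 4 to 6 of every group, was not computed.

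PHLDA1 (ENSG00000139289, chr12:76025447-76031776, minus strand), a pleckstrin homology-like domain protein that is induced by growth factors and has been tied to restraint of receptor signalling, fell. Its lowest, median and highest normalized counts were 2863, 2913 and 3069 in the control and 2556, 2789 and 3006 with EGCG. Resveratrol gave 2411, 2558 and 2685, and the combination 2556, 2774 and 2957. All resveratrol libraries were below all control libraries, and the other groups lay between and overlapped. PHLDA1 fell by 0.21 ± 0.04 with resveratrol (0.865 of the control, adjusted p = 5.48e-06) and by 0.09 ± 0.04 with the combination (0.936 of the control, adjusted p = 0.0218). The smaller fall was not called within replicates 4 to 6 (-0.08), with a stricter filter of 10 counts in each library (-0.07) or with scaling by library size alone (-0.01). EGCG alone left -0.07 ± 0.04, with an interval from -0.15 to -0.0028 and an adjusted p of 0.460. The combination was above resveratrol alone by 0.11 ± 0.04 (adjusted p = 0.0521), a call lost without resveratrol replicates 4 or 6 or combination replicates 1 or 5. The interaction of 0.19 ± 0.05 missed the threshold (adjusted p = 0.143) and was called by the DESeq2 Wald test, at 0.19. It was also called with genes of at least 1 count, by unadjusted p, with a replicate block and with a term for the 2 sets of replicates. Leaving out EGCG replicate 6 or combination replicate 3 gave the call as well.

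**Figure D2:**
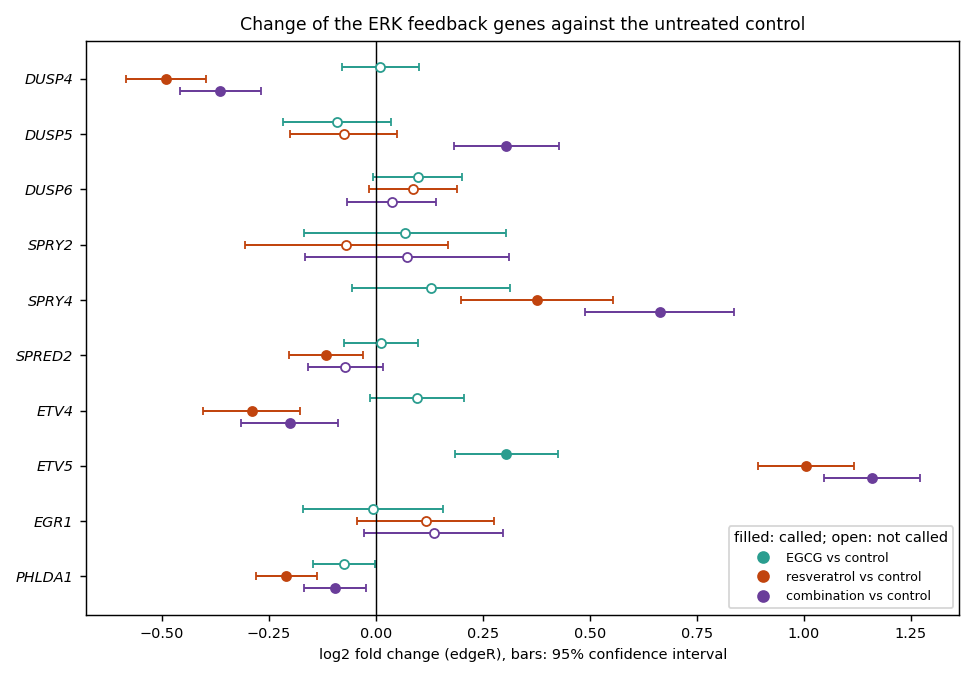
Log2 fold changes (horizontal axis) of the 10 genes (vertical axis) against the untreated control, with 95% confidence intervals as bars, for EGCG, resveratrol and the combination. Filled points were called. ETV5 reaches 1.00 with resveratrol and 1.16 with the combination, DUSP4 lies at -0.49 and -0.36, and DUSP5 is called only with the combination, at 0.30.

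Resveratrol can be compared with no resveratrol in 2 ways that share no library, without EGCG (resveratrol against control) and with it (combination against EGCG). The combination against EGCG called 5 members, 3 higher and 2 lower, where 57.8% of all tested genes were called (28.7% higher and 29.1% lower). The libraries did not overlap for DUSP4, DUSP5, SPRY4 and ETV5, and for 27.5% of tested genes. DUSP4 (-0.37 ± 0.05), ETV4 (-0.30 ± 0.06), ETV5 (0.85 ± 0.05) and SPRY4 (0.53 ± 0.08) were called in both and in the same direction. DUSP5 was called only with EGCG present (0.40 ± 0.06), and SPRED2 and PHLDA1 only without it. Of the 10 members 7 had the same sign in both, beside 85.7% of all tested genes. EGCG likewise was compared without resveratrol (EGCG against control) and with it (combination against resveratrol). Only ETV5 was called in both, at 0.31 and 0.15, and DUSP5 (0.38 ± 0.06), SPRY4 and PHLDA1 were called only beside resveratrol. The sign was the same for 6 of the 10 members, beside 60.4% of all tested genes. Neither share sets these genes apart, and of these pairs of effects only that of DUSP5 differed by the interaction test of the main fit. That of PHLDA1 missed the threshold there and passed it under several alternatives.

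**Figure D3:**
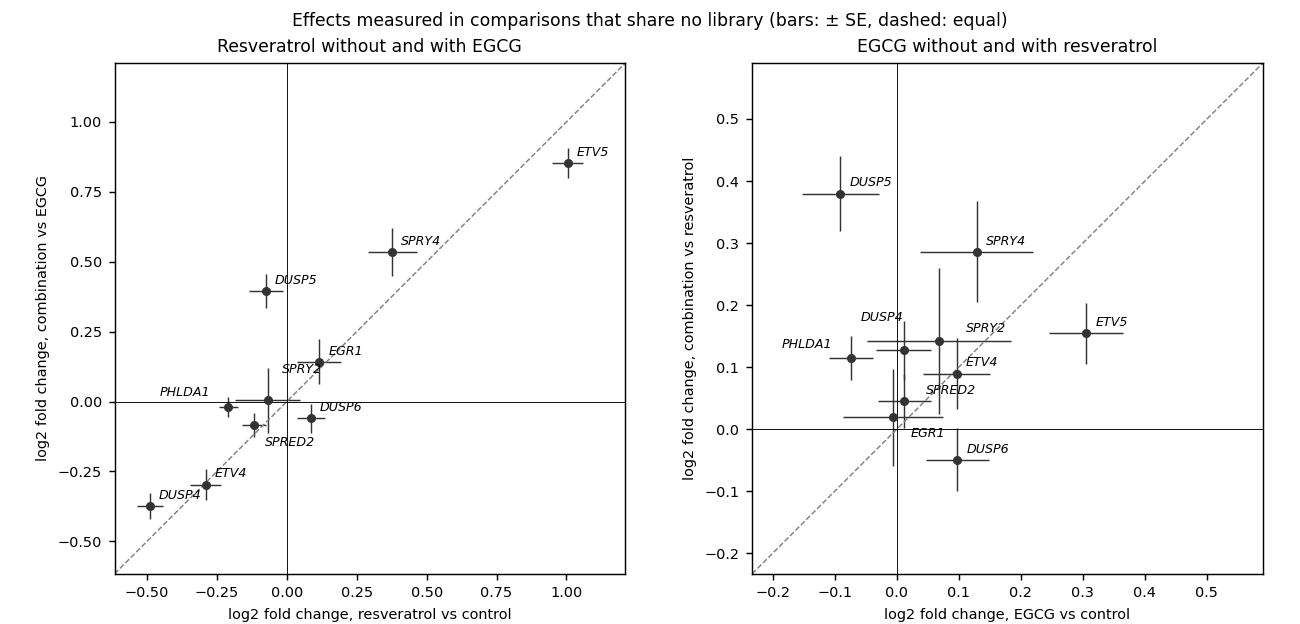
Log2 fold changes of the 10 genes, with SE as bars, for resveratrol without EGCG (horizontal axis) and with EGCG (vertical axis) on the left, and EGCG without and with resveratrol on the right. Points on the dashed line have equal effects. DUSP5 lies far off the line in both panels, at -0.07 and 0.40 on the left and at -0.09 and 0.38 on the right.

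Other genes of the pathway were taken from 3 lists with 47 genes, of which 44 were tested. With EGCG alone edgeR called 0 of the 44 and so did DESeq2, while 6 had an unadjusted p under 0.05. With resveratrol 30 were called (68.2%), 15 in each direction, where 56.9% of all tested genes were called. With the combination 32 were called (72.7%), 16 in each direction, where 59.8% of all tested genes were called. Whether these shares differ from those of all tested genes was not tested. The median log2 fold change of the 44 was 0.01 in both.

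The first list held 25 genes of the cascade from the receptors to the kinases under ERK, all tested. With resveratrol 7 rose and 9 fell, 64% in all, and with the combination 7 rose and 8 fell, 60% in all. These shares are near the 56.9% and 59.8% of all tested genes and are no result about the list. GAB1, an adaptor of receptors, rose by 0.76 ± 0.13 with resveratrol and by 0.91 ± 0.13 with the combination. Its normalized counts were 36.1 to 54.5 in the control, 57.4 to 99.5 with resveratrol and 68.8 to 99.7 with the combination, without overlap. SOS2, an exchange factor that loads RAS with GTP, rose by 0.42 ± 0.06 and 0.38 ± 0.06. Genes of RAS itself and of proteins that switch it off fell: HRAS by 0.39 ± 0.05 and 0.40 ± 0.05, and RASA1, a GTPase activating protein, by 0.34 ± 0.06 and 0.38 ± 0.06. NF1, of the same function, fell by 0.19 ± 0.06 with resveratrol and by 0.36 ± 0.06 with the combination, and NRAS and RASA2 fell as well. ERBB2 and ERBB3 rose by 0.27 ± 0.04 and 0.32 ± 0.04 with the combination, while EGFR fell by 0.08 ± 0.04 with resveratrol and was not called with the combination. Of the kinase genes, ARAF and BRAF were called with neither, and MAPK3 rose by 0.17 ± 0.06 and 0.19 ± 0.06. RPS6KA3, a kinase under ERK, fell by 0.21 ± 0.08 and 0.24 ± 0.08, and MAP2K1, which encodes a MEK kinase, rose by 0.09 ± 0.04 with the combination.

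The second list held 7 further phosphatases of MAP kinases. DUSP2 had at most 7 counts in any library and was not tested, and the other 6 were called with resveratrol and with the combination, 4 higher and 2 lower in each, beside 56.9% and 59.8% of all tested genes. Their median log2 fold change was 0.27 and 0.46. DUSP1 acts on several MAP kinases. The study lists it among the pathway genes it read from these libraries, so it is no independent pick. It had 94.8 to 119 normalized counts in the control, 167 to 186 with resveratrol and 187 to 228 with the combination. It rose by 0.73 ± 0.07 and 0.97 ± 0.07. DUSP10, DUSP16 and DUSP8, phosphatases that favour the stress kinases JNK and p38, rose by 0.57 ± 0.12, 0.34 ± 0.06 and 0.59 ± 0.15 with the combination. DUSP7 and DUSP9, which with DUSP6 form the cytoplasmic group that prefers ERK, fell. DUSP7 went from a mean of 1410 normalized counts to 947 with resveratrol and 987 with the combination, a fall of 0.57 ± 0.04 and 0.51 ± 0.04 without overlap. DUSP9 went from 52.5 to 30.7 and 23.0, a fall of 0.78 ± 0.13 and 1.18 ± 0.14, again without overlap.

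The third list held 15 further feedback and target genes, of which EGR2 and EGR3 were not tested. With resveratrol 4 of the 13 tested rose and 4 fell (61.5% called, beside 56.9% of all tested genes), and with the combination 5 rose and 6 fell (84.6% called, beside 59.8%). The 5 largest changes with the combination were those of SPRY3, FOS, FOSL1, ETV1 and SPRY1. FOSL1, a subunit of AP-1 that depends on sustained ERK activity, had 3285 to 3629 normalized counts in the control, 1859 to 2022 with resveratrol and 2007 to 2206 with the combination, and fell by 0.82 ± 0.04 and 0.68 ± 0.04. FOS, an immediate early subunit of AP-1, had 11.2 to 26.3 normalized counts in the control and rose by 0.82 ± 0.18 and 1.05 ± 0.18. ETV1, the third PEA3 factor, rose by 0.74 ± 0.16 and 0.58 ± 0.16 from a mean of 15.4 normalized counts to 25.9 and 23.4. SPRY3 rose by 1.08 ± 0.33 and 1.54 ± 0.32 from a mean of 4.88, where counting error is large. SPRY1 fell by 0.31 ± 0.13 and 0.53 ± 0.14. Of the 3 lists only IER3, an early response gene tied to ERK signalling, had a called interaction. It was 0.35 ± 0.07 (adjusted p = 0.0160). IER3 fell by 0.64 ± 0.05 with resveratrol and by 0.45 ± 0.05 with the combination. The interaction also takes in the difference with EGCG alone, -0.16 ± 0.05, which was not called (adjusted p = 0.134). By family, the Sprouty genes thus split with the combination, SPRY3 and SPRY4 up, SPRY1 down and SPRY2 not called, and so did the PEA3 factors, ETV1 and ETV5 up and ETV4 down.

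**Figure D4:**
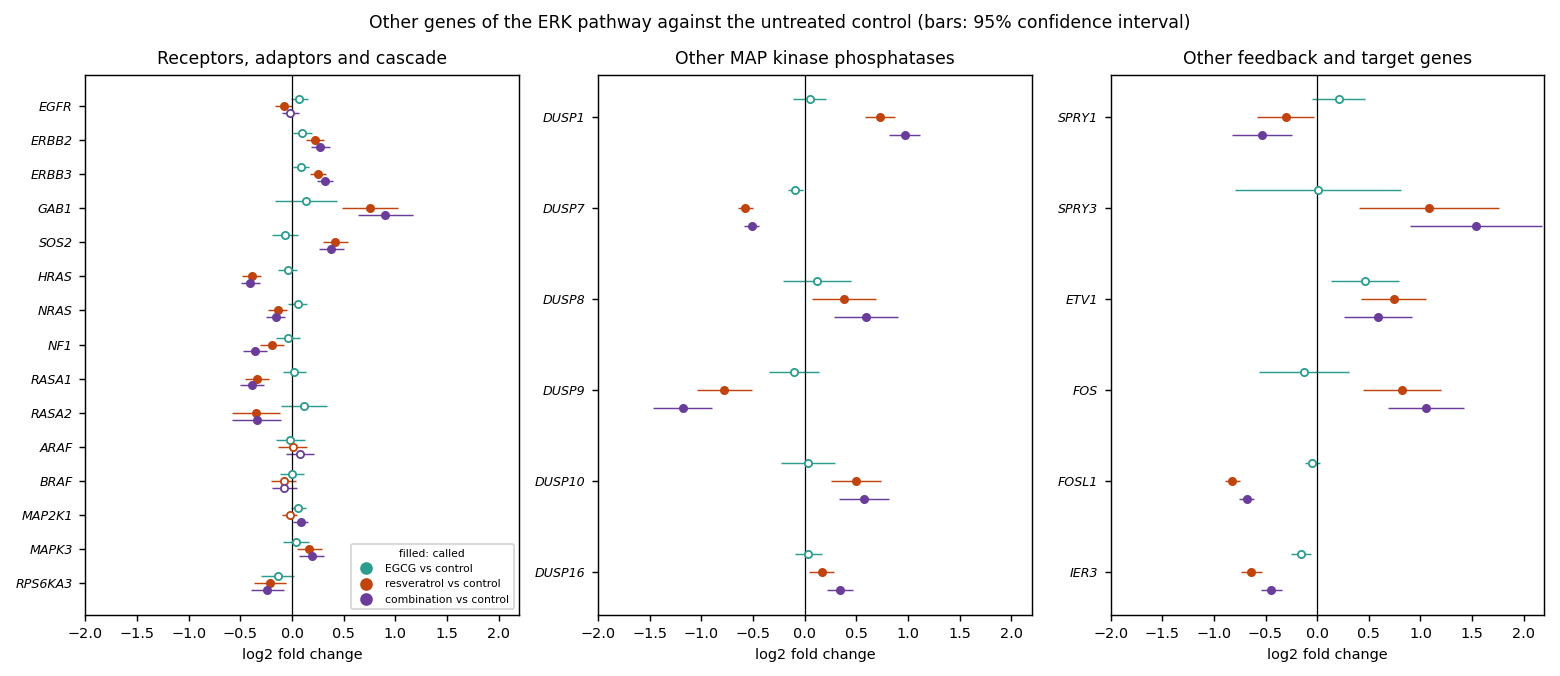
Log2 fold changes (horizontal axes) of the genes named here from the other pathway lists against the untreated control, with 95% confidence intervals as bars, filled where called. Left, receptors to kinases; middle, other MAP kinase phosphatases, where DUSP1 lies at 0.97 and DUSP9 at -1.18 with the combination; right, other feedback and target genes.

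For 4 members the 3 tested genes with the most similar log2 CPM across the 24 libraries are given as a description, over libraries that share the treatments and the 2 sets of replicates. SPRY4 was most similar to QSOX1, SPINT1 and RAB11FIP5, with Pearson coefficients of 0.946, 0.940 and 0.928. PHLDA1 was most similar to QKI, FRMD6 and CANX, at 0.819, 0.811 and 0.802. EGR1 was most similar to LY6E, MEA1 and TECR, at 0.797, 0.785 and 0.743. DUSP6 was most similar to the pseudogene RHEBP1, to RCN2 and to the pseudogene PSIP1P1, at 0.709, 0.694 and 0.659.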

How the data were processed

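RNASeq of MDA686TU cells in 4 groups of 6 libraries was analysed. The groups and replicate numbers are those of the labels. Per the submitters' notes and methods, stranded mRNA libraries (TruSeq) were sequenced in pairs, and reads were processed with bcl2fastq 2.17.1.14, Trimmomatic 0.36, FastQC 0.11.5, HISAT2 2.0.4 on GRCh38, SAMtools 1.3.1 and DESeq2 1.20.0. The program that counted reads, the annotation release and the strand setting are not given in the sources used here, so reads of overlapping genes are of uncertain origin. The authors deposited raw counts per gene without normalization. The normalized counts that the authors also deposited are a signal: dividing raw counts by DESeq2's size factor of each library gave the same values. The FPKM values of the authors were a constant multiple of these for each gene.

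The test was the quasi-likelihood test of edgeR 4.0.16 (R 4.3.3, filterByExpr, TMM) on raw counts, in 1 fit over the 24 libraries, with 15476 genes tested and adjusted together. Calls used the limits of the study, an adjusted p under 0.1 and a p under 0.05. Confidence intervals are at 95%. Their SE was taken as the absolute log2 fold change over the square root of the F statistic. For some genes of the other lists the intervals are narrower than the p implies. For SPRY1 the interaction interval ran from -0.83 to -0.04, with a quasi-likelihood p of 0.0517. Precision is set by the 6 libraries per group and by 7034872 to 11735574 counts per library. For likeness, log2 CPM had a prior count of 2. The edgeR step was tested on simulated data for EGCG against control, with 15320 genes tested, changed and unchanged together. It called 189 of 200 genes changed 2-fold, and 21 unchanged genes. Smaller changes, and comparisons in which most tested genes are called, were not simulated.

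The 10 genes, the lists and the split into replicates 1 to 3 and 4 to 6 were chosen with earlier results of these data known. All 10 are named. Of a list of up to 10 genes every member is named, and of longer lists the 5 with the largest change among those called with the combination, and others where a family is described. The last were chosen with their values known. Some genes of the lists enter the counts but are not reported here by name. Alternatives were the DESeq2 1.42.0 Wald test, DESeq2 size factors, library size alone, looser (1 count in all) and stricter (10 counts in each library) filters, an adjusted p under 0.05, the unadjusted p, only the groups compared, a replicate block, a term for the 2 sets of replicates, each set alone, and each library left out. Gene positions came from GENCODE v44 and promoters from RefSeq (GRCh38.p14).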

Additional observations from a re-analysis of the deposited data

Results flagged for a closer look

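In 40 groups of 6 libraries (10 genes in 4 groups), 3 held a library far from the others by Dixon's criterion, which chance meets in about 1 in 20 groups. DUSP4 was highest in combination replicate 3, at 591.7 normalized counts, with the next library at 546.3 and the lowest at 525.4. DUSP6 was highest in combination replicate 1, at 533.3, with the next at 457.7 and the lowest at 419.2. ETV4 was highest in resveratrol replicate 4, at 398.6, with the next at 351.8 and the lowest at 325.7. Without these libraries the log2 fold changes against the control were -0.39 for DUSP4, -0.01 for DUSP6 and -0.33 for ETV4.

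The effect of EGCG on DUSP5 differed with and without resveratrol, by an interaction of 0.47 on the log2 scale. DUSP5 was -0.09 with EGCG against the control and 0.38 with the combination against resveratrol.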

How the results depend on the processing

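Of 1550 refits of single genes, 1427 kept their direction and side of the threshold, 41 gained a call, 28 lost it and 54 changed sign, the last only for differences that were not called. Over 36 pairs of same-numbered libraries the correlation of deviations was -0.011 to 0.131 (median 0.049), with 2 pairs over 0.1. Other-numbered pairs had a median of 0.028 in the same set of replicates and of -0.041 across the sets. Of 24 libraries 11 correlated best with their own number. Whether the replicate numbers pair the libraries was not tested, and the main fit had no term for them. The replicate block raised the members with a called interaction from 1 to 2 and the other pathway genes called with EGCG from 0 to 1.

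Members with a called interaction numbered 2 with the DESeq2 Wald test, genes of at least 1 count or a term for the sets of replicates, 3 by unadjusted p, 0 within either set, and 1 to 2 with a library left out (2 without EGCG replicate 6 or combination replicate 3). Members called in the combination against resveratrol numbered 2 at an adjusted p under 0.05 and within either set, and 2 to 4 with a library left out (2 without resveratrol replicate 4). Members called with EGCG numbered 2 by unadjusted p and 0 within replicates 4 to 6. Other pathway genes called with EGCG numbered 6 by unadjusted p, 1 with genes of at least 1 count, with only the groups compared or with the term for the sets, and 0 to 1 with a library left out (1 without control replicate 5 or EGCG replicate 3). Causes were not tested.

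With library size alone the log2 difference changed sign for EGR1 with EGCG (0.000927), DUSP5 (0.013) and SPRY2 (0.020) with resveratrol, SPRED2 with the combination (0.012), and DUSP6 (0.015) and PHLDA1 (0.056) in the combination against EGCG. In that comparison SPRY2 turned with genes of at least 1 count (-0.00251) and PHLDA1 with at least 10 (0.00694). Within replicates 1 to 3 SPRY2 with EGCG (-0.035), SPRED2 in the combination against resveratrol (-0.00018) and the interactions of SPRED2 (-0.014) and ETV4 (0.054) turned. Within replicates 4 to 6 DUSP4 (-0.093) and EGR1 (0.028) with EGCG, DUSP5 (0.047) and SPRY2 (0.050) with resveratrol, ETV4 (-0.019) and EGR1 (-0.056) in the combination against resveratrol, SPRY2 in the combination against EGCG (-0.089) and the interactions of SPRY2 (-0.14) and EGR1 (-0.084) turned.

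With a library left out, these ranges crossed 0: with EGCG DUSP4 -0.017 to 0.041, SPRY2 -0.0074 to 0.117, SPRED2 -0.014 to 0.045 and EGR1 -0.057 to 0.046. With the combination they were DUSP6 -0.010 to 0.059 and SPRY2 -0.0027 to 0.147. Against resveratrol the combination gave EGR1 -0.067 to 0.053, and against EGCG it gave SPRY2 -0.060 to 0.079 and PHLDA1 -0.046 to 0.022. The interactions ranged from -0.00014 to 0.060 for SPRED2, -0.044 to 0.032 for ETV4 and -0.060 to 0.076 for EGR1. Depth limits SPRY2 most, with 37 to 76 raw counts a library.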
